A study of Mus musculus with 24 samples.

Results

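The 9 genes described here mark the birth and early life of neurons, namely Neurod1, Neurod2, Neurod6, Dcx, Eomes, Tbr1, Sox11, Calb2 and Igfbpl1. They were taken by symbol from the 49568 gene symbols counted in each library, because enrichment is known for raising the production of neurons in the adult hippocampus. No measured difference set the choice, but earlier results of these data were known when it was made. RNA of the whole hippocampus of mice labeled 12 weeks old, all male and experimentally naive per the study's methods, was sequenced as poly-A libraries. The 4 groups were wild-type mice in standard housing (WT SH, 6 libraries) or in an enriched environment (WT EE, 5), and MSK1 kinase-dead mice in standard housing (KD SH, 6) or enriched (KD EE, 5). The kinase-dead mice carry a knock-in point mutation in every cell of the body that removes the kinase activity of MSK1, a nuclear kinase activated by BDNF that phosphorylates CREB. Enriched mice were reared from birth in large shared cages with toys and a running wheel, so that exercise and the other parts of enrichment cannot be told apart. Each library has a code of its own (1 to 17, and codes with a letter such as 31B). Nothing in the labels says that each came from a separate mouse, so the p-values measure the spread between libraries.

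In the adult dentate gyrus, stem cells of the subgranular zone divide and give rise to intermediate progenitors, then to neuroblasts, then to immature granule neurons that join the granule cell layer. A cascade of transcription factors accompanies these steps, with Eomes (Tbr2) in intermediate progenitors, Neurod1 in late progenitors and neuroblasts, and Sox11 in neuroblasts and immature neurons. Dcx, which encodes the microtubule protein doublecortin, is the standard marker of neuroblasts, and Calb2 (calretinin) is expressed for a short time as these cells become neurons. Several of the genes are not limited to new neurons. Neurod2 and Neurod6 are expressed in mature glutamatergic neurons of the forebrain, Tbr1 in glutamatergic neurons of the cortex, and Calb2 also in interneurons and in mossy cells. Which cells gave the RNA of Neurod1 and Eomes was not tested, so that neither level is a count of new cells. In RNA from whole tissue, fewer cells of a type and less RNA in each cell cannot be told apart.

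The promoters of the 3 Neurod genes are shown because Neurod1 and Neurod6 had negative fold changes with enrichment in both genotypes, whereas Neurod2 did not. No member was called over the 22 libraries, and Calb2, which was lower as well, had no promoter window. Each stretch holds the 250 bases before and the 50 bases after the start of a RefSeq transcript on GRCm38.p6, from 5′ to 3′ on the strand of the gene. All 3 genes lie on the minus strand, Neurod1 at chr2:79456587-79456886, Neurod6 at chr6:55681214-55681513 and Neurod2 at chr11:98329596-98329895. Capitals mark E-boxes, the motif CANNTG that proteins of the Neurod family bind, searched on both strands, which read alike for this motif.
Neurod1: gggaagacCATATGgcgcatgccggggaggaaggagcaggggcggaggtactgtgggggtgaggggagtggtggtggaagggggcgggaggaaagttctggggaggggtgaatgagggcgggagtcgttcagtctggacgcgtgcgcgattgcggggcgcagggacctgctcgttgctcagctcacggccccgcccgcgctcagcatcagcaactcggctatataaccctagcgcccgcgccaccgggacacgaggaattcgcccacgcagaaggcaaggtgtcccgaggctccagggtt
Neurod6: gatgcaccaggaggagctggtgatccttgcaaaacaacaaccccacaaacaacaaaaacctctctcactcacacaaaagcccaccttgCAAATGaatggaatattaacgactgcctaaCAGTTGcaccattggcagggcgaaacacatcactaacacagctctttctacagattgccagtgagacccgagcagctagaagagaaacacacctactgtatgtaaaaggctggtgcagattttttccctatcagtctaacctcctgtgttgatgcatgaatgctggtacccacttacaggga
Neurod2: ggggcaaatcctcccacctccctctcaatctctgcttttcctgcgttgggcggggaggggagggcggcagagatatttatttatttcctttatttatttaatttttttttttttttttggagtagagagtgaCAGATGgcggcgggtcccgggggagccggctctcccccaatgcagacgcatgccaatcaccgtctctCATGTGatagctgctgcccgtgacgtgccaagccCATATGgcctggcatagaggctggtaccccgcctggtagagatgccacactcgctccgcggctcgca
The Neurod1 window held 1 E-box, that of Neurod6 held 2 and that of Neurod2 held 3, and 72.3% of all 32851 windows of this length hold at least 1. The form CAGATG was found in the Neurod2 window only among the 7 members with a window, and in 17.2% of all windows. The shorter site TGACG from the cAMP response element, to which CREB binds, was also found in the Neurod2 window only, and in 20.8% of all windows. None of the 7 held the full element TGACGTCA, which 1.79% of all windows hold. The 3 windows differ in base composition, with a GC content of 66.7% in Neurod1, 46.3% in Neurod6 and 55.3% in Neurod2, against a median of 52.7% over all windows. The number of CpG was 26, 3 and 16, in the same order, against a median of 7.

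The 22 libraries held between 8911999 and 56752074 counts on genes (median 30265877), and libraries 33B and 34B, with over 54% of their fragments outside single genes, were left out. A level is given in CPM (counts per 1000000 counts on genes, scaled by TMM). Before the scaling by TMM, 3 counts correspond to between 0.0529 and 0.337 CPM. The intervals given below include the spread between libraries, whereas this floor rests on counts alone. The reads carry no molecular identifiers, so that a count is not a count of molecules. The targeted gene Rps6ka5 (MSK1) was found at between 19.3 and 29.5 CPM in all 22 libraries, and its point mutation leaves no mark in a gene count, so that its level checks no label. The library makeup was not even. Summed CPM of 8 thalamic genes reached 510 in library 12 (WT SH) against at most 231 elsewhere, striatal genes reached 247 in library 14 (WT SH), and neocortical genes were highest in library 5 (KD SH, 333). The 11 choroid plexus genes varied most, from 44.6 to 5860 summed CPM, with no gene of these lists at 0 in all libraries.

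All 9 genes were detected, and all passed the filter on low counts. Per kilobase of exon, the level over the 22 libraries was highest for Neurod6, at 80.5 ± 10.4 CPM per kb (SD, n = 22), followed by Neurod2 at 45.9 ± 5.91 and Calb2 at 19.97 ± 4.14 CPM per kb. Tbr1 came next at 11.2 ± 1.32 and Neurod1 at 5.83 ± 0.872 CPM per kb. The markers of progenitors and neuroblasts were lower, with Dcx at 2.46 ± 0.491, Sox11 at 1.93 ± 0.391, Igfbpl1 at 0.771 ± 0.378 and Eomes at 0.255 ± 0.209 CPM per kb. The genes that mature glutamatergic neurons also express thus gave the highest levels per length. In this order, the ranges of mean ± SD overlapped for Dcx and Sox11 and for Igfbpl1 and Eomes, and for no other neighbors. The genes also differed in how even they were, with a coefficient of variation of between 11.9% and 14.95% for Tbr1, Neurod2, Neurod6 and Neurod1, and higher for Dcx (19.95%), Sox11 (20.2%) and Calb2 (20.7%). It was 49.1% for Igfbpl1 and 82.1% for Eomes, which had between 3 and 183 counts in a library.

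**Figure D1:**
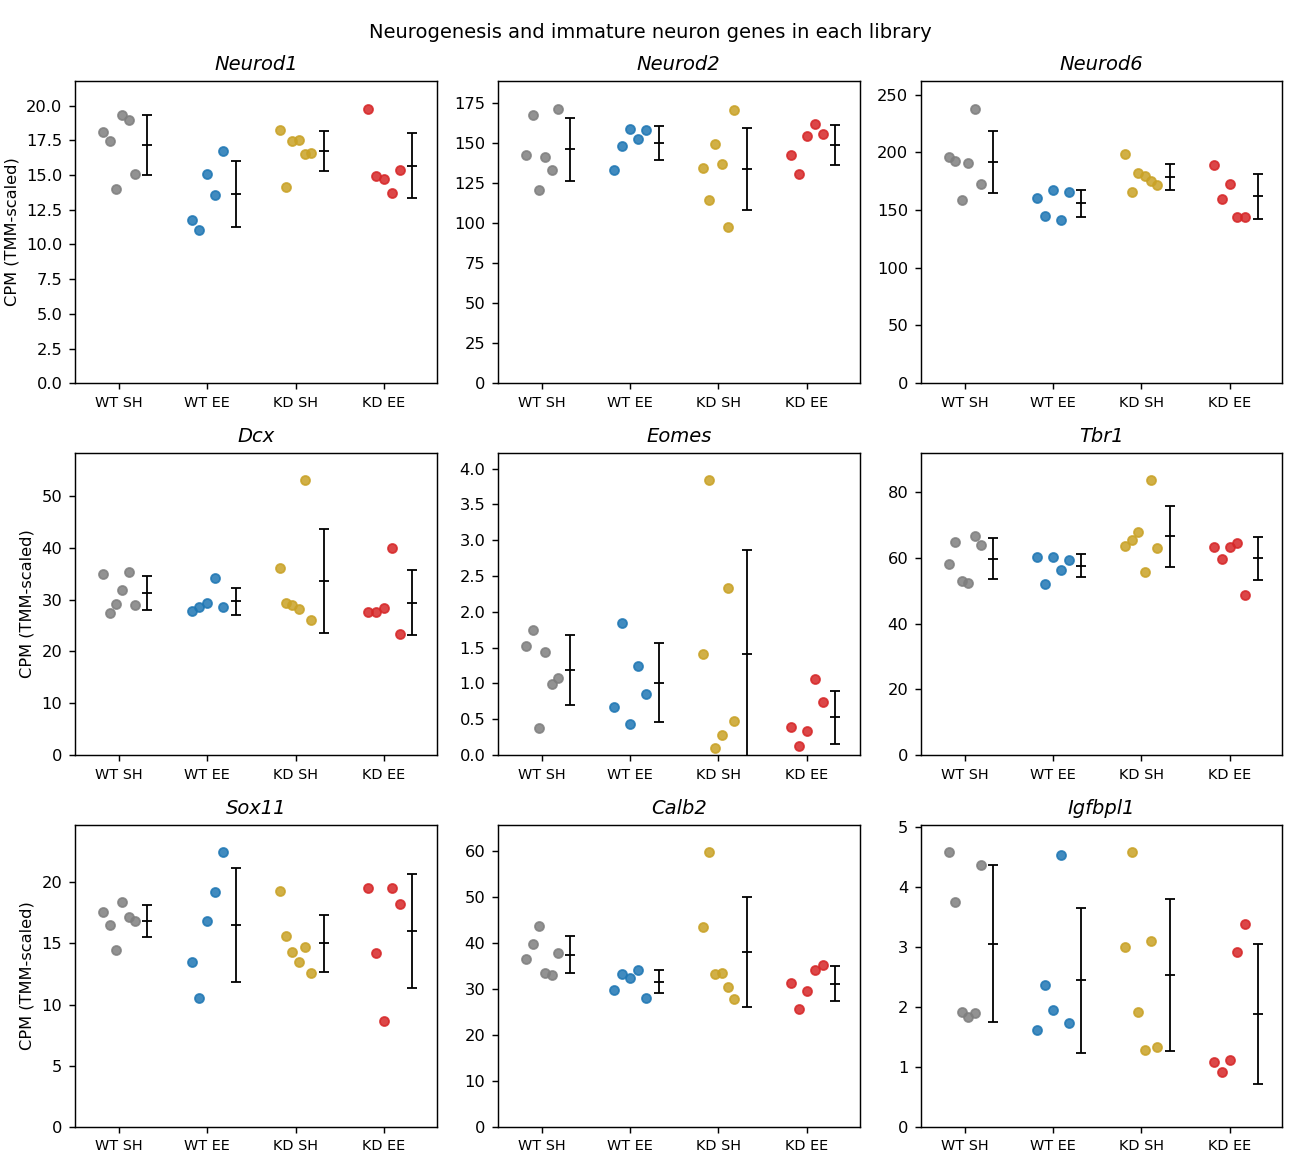
Level of each of the 9 genes in TMM-scaled CPM (y axis, from 0) in the 4 groups (x axis), with 1 point for each library and the mean ± SD beside the points, the bar of Eomes in KD SH being cut at 0. Neurod1 and Neurod6 lay lower in most WT EE libraries than in WT SH, whereas the Dcx points of all 4 groups overlapped.

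The first question was whether enrichment raised these genes, since enrichment is known to raise the number of newborn neurons. No member was called as higher. Averaged over the genotypes, 7 of the 9 had a negative log2 fold change, as did 8921 of all 18482 genes tested. The median was -0.22 for the 9, against 0.00 for all genes tested. No member passed the thresholds of the edgeR quasi-likelihood test (adjusted p of 0.05 or less after Benjamini-Hochberg adjustment and a log2 fold change of at least 0.38, or 1.3-fold), which 0.146% of all genes passed. At an unadjusted p of 0.05 or less, 3 members were lower in EE (Neurod6, Neurod1 and Calb2) and none was higher, where 7.28% of all genes were lower and 16.1% passed in either direction. DESeq2 called none of the 9 either, and also gave 3 members at an unadjusted p of 0.05 or less.

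Within WT, 0% of the genes tested passed the thresholds, so that no member was called. Neurod1 and Neurod6 had an unadjusted p of 0.05 or less, both lower in EE, where 3.4% of all genes were lower at that p and 8.65% passed it in either direction. In KD, again 0% of the genes passed the thresholds, and no member had an unadjusted p of 0.05 or less, where 4.6% of all genes were lower and 9.63% passed in either direction. DESeq2 gave 2 members at that p in WT and 1 in KD, and called none. The median log2 fold change of the 9 was -0.24 in WT, against 0.01 for all genes, and -0.15 in KD, against 0.00.

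**Figure D2:**
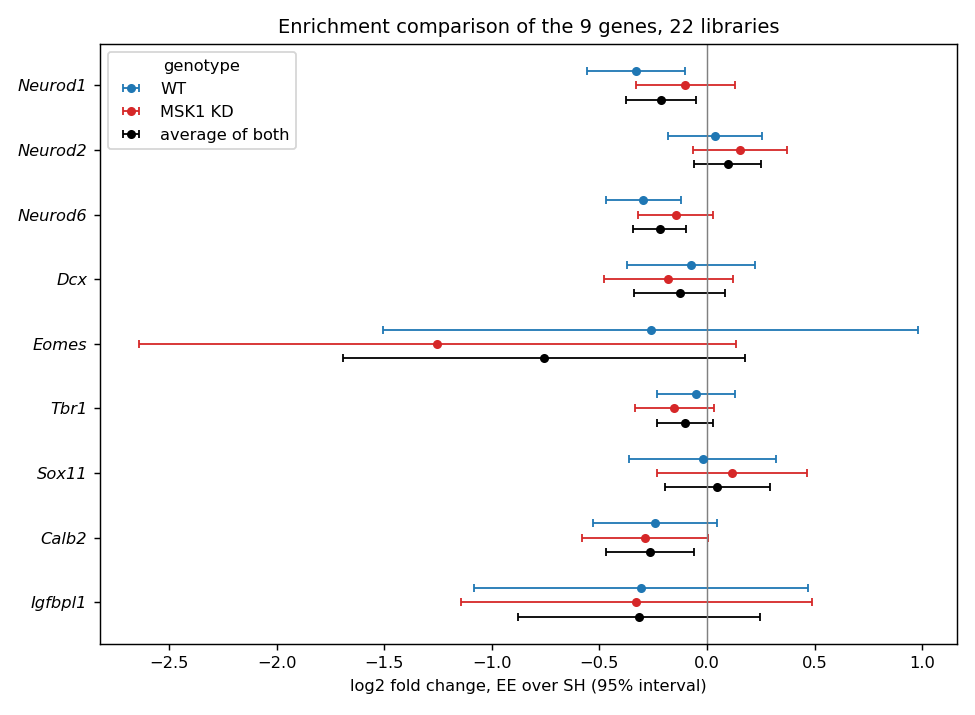
Log2 fold change of EE over SH (x axis) for each of the 9 genes (y axis) in WT, in MSK1 KD and averaged over both genotypes, with 95% intervals from edgeR over 22 libraries. The intervals of Neurod1 and Neurod6 lie below 0 in WT and in the average, that of Calb2 in the average, and the intervals of the other 6 genes include 0 in all 3 comparisons.

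Neurod1 encodes a basic helix-loop-helix factor needed for dentate granule neurons to form and survive. In WT SH it had 18.1, 17.5, 14.02, 19.3, 18.996 and 15.1 CPM in libraries 10 to 15 (lowest 14.02, median 17.8, highest 19.3). The WT EE libraries 16, 17, 31B, 33A and 35A had 11.7, 11.02, 15.05, 13.6 and 16.8 CPM. All 5 lay below the WT SH median and 3 lay below the lowest WT SH library, with overlap between the groups. The mean was 17.2 ± 2.17 CPM (SD, n = 6) in WT SH and 13.6 ± 2.36 CPM (SD, n = 5) in WT EE. This gave a log2 fold change of -0.33 in WT, with an SE of 0.11 and an adjusted p of 0.411. In KD the levels were 14.1 to 18.3 CPM in SH (median 17.05), and 19.8, 14.9, 14.7, 13.7 and 15.3 CPM in EE libraries 7, 8, 9, 32A and 36A. Library 7 was the highest of all 22, whereas the other 4 KD EE libraries lay below the KD SH median. In KD, EE over SH came to -0.10 (SE 0.11, adjusted p = 0.793). With 1 library left out, this value ran from -0.19 (without 7) to -0.06 (without 32A). The average over genotypes came to -0.22 (SE 0.08, adjusted p = 0.168). The gene lies at chr2:79452521-79456751 on the minus strand of GRCm38, within the span of Cerkl on the same strand, which had a median of 89 counts against 460 for Neurod1, and the counting took no account of strand.

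Neurod6, a factor of the same family found mainly in pyramidal neurons of hippocampus and cortex, had the lowest p of the 9 in WT and in the average. Its levels in WT SH were 159 to 238 CPM (median 191), with the highest in library 14. In WT EE they were 160, 145, 167, 141 and 165 CPM in libraries 16, 17, 31B, 33A and 35A, all below the WT SH median and 2 below its lowest library. The KD SH libraries had 166 to 198 CPM (median 177), and the KD EE libraries had 189, 160, 173, 144 and 144 CPM, of which library 7 was again the highest. The groups overlapped in both genotypes, and 9 of the 10 EE libraries lay below the median of the 12 SH libraries. On the log2 scale, EE differed from SH by -0.30 in WT (SE 0.08, adjusted p = 0.385), by -0.15 in KD (SE 0.08, adjusted p = 0.581) and by -0.22 in the average (SE 0.06, adjusted p = 0.0704). The averaged value is thus small, its 95% interval lying between -0.34 and -0.10. Over the 17 libraries of the study, the average of Neurod6 was -0.30 (adjusted p = 0.0047). The adjusted p was between 0.0284 (DESeq2) and 0.289 (the choroid plexus score as a covariate) over the other alternatives. In none of all these did the fold pass its threshold. Over the 22 libraries, the log2 CPM of Neurod6 followed that of Neurod1 more closely than that of any other member (r = 0.78), a description that shares depth and tissue makeup between the genes.

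Neurod2, the third member of the family, differed from both. Its levels were 120 to 171 CPM in WT SH (median 142) and 133, 148, 159, 152 and 158 CPM in the WT EE libraries 16, 17, 31B, 33A and 35A. In KD they were 97.3 to 170.3 CPM in SH (median 136) and 142, 130.5, 154, 161 and 155 CPM in EE. The lowest of the 22 was library 5, and only 2 of the 10 EE libraries lay below the SH median. EE over SH, as log2, was 0.04 for WT (SE 0.11, adjusted p = 0.960), 0.15 for KD (SE 0.11, adjusted p = 0.650) and 0.10 for the average (SE 0.07, adjusted p = 0.564), and the value of WT turned negative in 5 alternatives and without library 12.

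The set of 17 libraries on which the study itself relied gave another count for these genes in WT. It leaves out libraries 2, 9, 12, 31B and 35A, which the study removed for their correlation within groups, and so keeps 5 WT SH and 3 WT EE libraries. In it, 3.55% of all 18701 genes were called in WT and 0.0695% (13 genes) were called as lower in EE. Neurod1 fell by 0.55 on the log2 scale (SE 0.11, adjusted p = 0.0031) and Neurod6 fell by 0.41 (SE 0.10, adjusted p = 0.013). No other member was called in WT, and none in KD, where 1.74% of all genes were called. Averaged over the genotypes, Neurod1 was at -0.34 in this set (adjusted p = 0.0051), short of the fold threshold. The 2 WT EE libraries that it leaves out, 31B and 35A, held the highest levels of Neurod1 and Neurod6 in that group, and library 12 held the lowest of WT SH. The calls of Neurod1 and Neurod6 in WT therefore rest on which libraries are kept. Without all libraries whose code carries a letter (31B, 32A, 33A, 35A and 36A, all of them EE), Neurod1 was again called in WT (log2 fold change -0.59, adjusted p = 0.0311), with only 2 WT EE libraries left, and Neurod6 was not (-0.32, adjusted p = 0.155).

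The choroid plexus genes moved with these calls. This tissue makes cerebrospinal fluid in the ventricle beside the hippocampus, and Ttr (transthyretin) is its best known marker. Of 11 such genes, all 11 were higher in EE at an unadjusted p of 0.05 or less in the average, with a median log2 fold change of 2.35 and none called. Their summed level was 64.5 to 1909 CPM in WT SH and 63.2 to 5441 CPM in WT EE, and 44.6 to 2982 CPM in KD SH and 221 to 5860 CPM in KD EE. In WT EE, libraries 16, 17 and 33A had 5369, 4187 and 5441 CPM of choroid plexus genes and 31B and 35A had 75.9 and 63.2 CPM. The 3 libraries with many choroid plexus reads were also the 3 lowest of that group in Neurod1, as well as in Neurod6. In WT SH, library 12 was the highest in choroid plexus genes and the lowest in both, as library 2 was in KD SH. The order was less close in KD EE, where libraries 7, 8, 9, 32A and 36A had 1052, 2284, 221, 3153 and 5860 CPM of these genes. Library 9, with the least of them, had less Neurod1 than library 36A, with the most, whereas 32A and 36A were the lowest of that group in Neurod6. With the mean log2 CPM of the 11 genes as a covariate, the log2 value of Neurod1 was -0.22 for WT (adjusted p = 0.582), 0.07 in KD (adjusted p = 0.803) and -0.07 averaged (adjusted p = 0.660). That of Neurod6 was -0.22 in WT (adjusted p = 0.517), -0.04 in KD and -0.13 averaged (adjusted p = 0.289). The difference of Neurod1 in KD thus changed sign, and both averaged differences became smaller. Over the 9 members, the count lower in EE at an unadjusted p of 0.05 or less rose with this covariate. It went from 2 to 3 in WT, from 0 to 2 in KD and from 3 to 4 in the average. Of all 18482 genes tested, those lower at that p went from 629 to 691 in WT, from 850 to 1160 in KD and from 1345 to 1434 in the average. What links the levels was not tested.

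**Figure D3:**
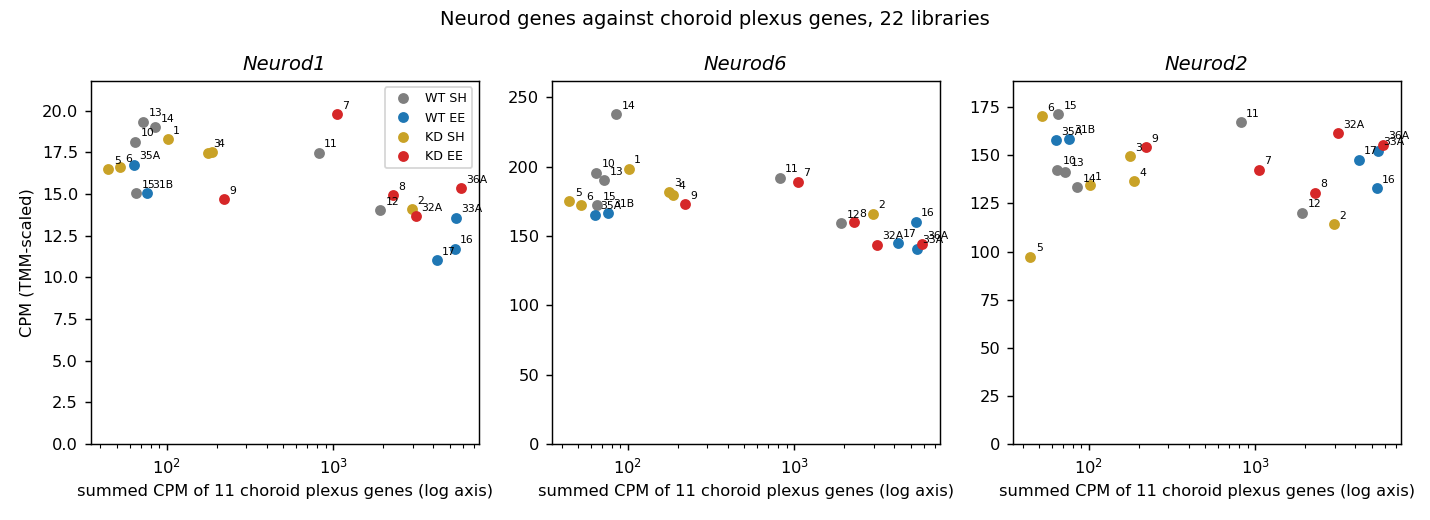
Level of Neurod1, Neurod6 and Neurod2 in TMM-scaled CPM (y axes, from 0) against the summed CPM of 11 choroid plexus genes (x axes, log scale), with 1 point for each of 22 libraries, colored by group and marked with the library code. The WT EE libraries 16, 17 and 33A sit at between 4187 and 5441 CPM of choroid plexus genes and below 31B and 35A for Neurod1 and Neurod6.

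Doublecortin had small negative differences with enrichment, which passed no threshold and were moved by single libraries. Dcx had 27.5 to 35.3 CPM in WT SH (median 30.5) and 27.8, 28.5, 29.3, 34.2 and 28.5 CPM in WT EE. It had 26.0 to 53.0 CPM in KD SH (median 29.2) and 27.5, 27.7, 28.4, 39.9 and 23.3 CPM in KD EE. The groups overlapped, and library 5 (KD SH) stood far above them. With log2 fold changes of -0.08 for WT (SE 0.14, adjusted p = 0.937), -0.18 for KD (SE 0.15, adjusted p = 0.700) and -0.13 for the average (SE 0.10, adjusted p = 0.574), it passed no threshold. The 95% interval of the average was -0.34 to 0.08, so that its upper bound is a small rise. Without library 5, in which the neocortical genes were also highest (333 CPM against at most 277 elsewhere), the difference in KD was -0.01 and the average was -0.04. Without library 32A, the highest of KD EE, it was -0.33 in KD (unadjusted p = 0.0322, adjusted p = 0.593) and -0.20 in the average (unadjusted p = 0.0487, adjusted p = 0.337). Tbr1, which marks glutamatergic neurons of the cortex, was highest in library 5, as Dcx was.

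Tbr1 had 52.3 to 66.6 CPM in WT SH (median 61.1) and 60.4, 52.0, 60.4, 56.2 and 59.4 CPM in WT EE. It had 55.6 to 83.7 CPM in KD SH (median 64.6) and 63.3, 59.7, 63.3, 64.6 and 48.7 CPM in KD EE. All 5 WT EE libraries and 4 of the 5 KD EE libraries lay below the SH median of their genotype, with wide overlap. Its log2 fold changes were -0.05 in WT (SE 0.09), -0.15 in KD (SE 0.09) and -0.10 averaged (SE 0.06, adjusted p = 0.444).

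Sox11, a factor that acts upstream of Dcx in new neurons, was even in SH and spread out in EE. It had 14.5 to 18.4 CPM in WT SH (median 17.01), and 13.5, 10.5, 16.8, 19.2 and 22.5 CPM in WT EE libraries 16, 17, 31B, 33A and 35A. The KD SH libraries had 12.6 to 19.3 CPM (median 14.5), and the KD EE libraries 7, 8, 9, 32A and 36A had 19.6, 14.2, 8.68, 19.5 and 18.2 CPM. The lowest and the highest of all 22 libraries were therefore both EE. The 5 EE libraries with a letter in their code had 16.8 to 22.5 CPM, and 4 of the 5 EE libraries without a letter had 14.2 CPM or less, the exception being library 7. What the letter stands for is not given, and since no SH library carries one, it cannot be told apart from housing except within EE. Its log2 fold changes were -0.02 in WT (SE 0.17), 0.12 in KD (SE 0.17) and 0.05 averaged (SE 0.12, adjusted p = 0.880). With 1 library left out, the value of WT ran from -0.17 (without 35A) to 0.10 (without 17), and that of KD from 0.03 (without 32A) to 0.25 (without 9). Without the libraries with a letter, the average was -0.27 (adjusted p = 0.347), which has the opposite sign.

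Calb2 had similar negative fold changes in both genotypes, and passed the thresholds in neither. It had 36.5, 39.8, 43.8, 33.4, 32.99 and 37.9 CPM in WT SH libraries 10 to 15 (lowest 32.99, median 37.2, highest 43.8), and 29.8, 33.3, 32.4, 34.2 and 28.1 CPM in WT EE. All 5 WT EE libraries lay below the WT SH median and 3 below its lowest library. In KD SH it had 27.8 to 59.7 CPM (median 33.4), with library 2 the highest of all 22, and in KD EE it had 31.2, 25.7, 29.6, 34.1 and 35.1 CPM. The log2 fold change came to -0.24 for WT (SE 0.14, adjusted p = 0.662), -0.29 for KD (SE 0.14, adjusted p = 0.525) and -0.27 for the average (SE 0.10, adjusted p = 0.177). Without library 2 the difference in KD was -0.11 and the average -0.17. In contrast to Neurod1, the averaged difference was larger with the choroid plexus score as a covariate (-0.42, adjusted p = 0.0611), whereas over the 17 libraries it was -0.12 (adjusted p = 0.475). The level of calretinin RNA also holds that of interneurons and mossy cells, so that it does not stand for immature granule neurons alone.

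The markers with the fewest counts were the least even. Eomes, the marker of intermediate progenitors, had 0.375 to 1.74 CPM in WT SH (median 1.26) and 0.674, 1.84, 0.430, 1.24 and 0.849 CPM in WT EE. In KD SH libraries 1 to 6 it had 1.41, 3.84, 0.0930, 0.280, 2.33 and 0.478 CPM, and in KD EE it had 0.387, 0.129, 0.334, 1.06 and 0.737 CPM. The libraries of KD SH alone thus covered the whole range of 41.3-fold. As log2, EE over SH was -0.26 in WT (SE 0.60), -1.25 in KD (SE 0.67, adjusted p = 0.557) and -0.76 averaged (SE 0.45, adjusted p = 0.424), with a 95% interval of -1.69 to 0.18 for the average. Without library 2 (KD SH), the difference in KD was -0.50 and the average -0.38. The value of WT was between -0.56 (without library 17) and -0.08 (without library 31B) with 1 library left out. Eomes overlaps the antisense gene Gm33460, and reads of both strands were not separated.

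Igfbpl1, an insulin-like growth factor binding protein gene expressed in neuroblasts, had 1.83 to 4.58 CPM in WT SH (median 2.83) and 1.62, 2.36, 1.95, 4.53 and 1.73 CPM in WT EE. It had 1.29 to 4.57 CPM in KD SH (median 2.46) and 1.08, 0.905, 1.11, 2.91 and 3.38 CPM in KD EE. High and low libraries occurred in every group, and the groups overlapped. As log2, EE over SH was -0.31 in WT (SE 0.38), -0.33 in KD (SE 0.40) and -0.32 averaged (SE 0.27, adjusted p = 0.604). Single libraries moved these values widely, from -0.67 (without 33A) to -0.15 (without 10) in WT, from -0.64 (without 36A) to -0.04 (without 2) in KD and from -0.50 (without 33A) to -0.17 (without 2) in the average. Over the 17 libraries, KD had the opposite sign (0.08). The estimate of edgeR for the coefficient of variation between libraries was 0.428 for Igfbpl1 and 0.682 for Eomes, against a median of 0.120 over all genes tested. Changes of the size seen for Neurod1 or Neurod6 were therefore not detectable in these 2 genes at this spread.

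The next question was whether the kinase activity of MSK1 altered these genes or their response to housing. Between WT and KD no member was called, and none had an unadjusted p of 0.05 or less, in SH, in EE or averaged over housing. DESeq2 gave no member at either limit. Over all genes, 0% were called in each of these comparisons, and 5.76% in SH, 2.61% in EE and 6.06% in the average had an unadjusted p of 0.05 or less. The averaged log2 fold changes of WT over KD were between -0.10 for Tbr1 and 0.30 for Eomes. For Dcx the average was -0.04 (SE 0.10), with a 95% interval of -0.25 to 0.17. The interaction of genotype and housing tests whether enrichment acted differently in WT and KD. It gave no call and no member at an unadjusted p of 0.05 or less, by edgeR or DESeq2, where 0% of all genes were called and 2.04% had such a p. The interaction of Neurod1 was -0.23 (SE 0.16, adjusted p = 0.99996) and that of Neurod6 was -0.15 (SE 0.12, adjusted p = 0.99996), so that a larger decrease in WT than in KD was not shown for either. Over the 17 libraries the interaction of Neurod1 was -0.42 (SE 0.15, adjusted p = 0.875) and that of Sox11 was -0.52 (SE 0.21, adjusted p = 0.875), again without a call.

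Other genes of the neurogenic sequence were taken as lists by their known roles. In the averaged comparison, 7.28% of all genes were lower in EE at an unadjusted p of 0.05 or less. In either direction, 16.1% passed. Of the 13 genes of neural stem cells and progenitors, 12 were tested, and 5 were lower and none higher in EE at an unadjusted p of 0.05 or less in the average, with a median log2 fold change of -0.11 against 0.00 for all genes. Sox2, which maintains stem cells and is also expressed in astrocytes, stood at -0.30 on that scale (SE 0.06, adjusted p = 0.0406), and its relative Sox1 at -0.33 (SE 0.07, adjusted p = 0.0406). Both passed the adjusted p and missed the fold threshold. Sox2 had 41.4 to 46.9 CPM in WT SH (median 44.3) and 28.9 to 37.5 CPM in WT EE (median 33.6). In KD, its levels were 39.8 to 44.7 CPM in SH and 27.0 to 45.4 CPM in EE. Hes5, a target of Notch signaling in stem cells, had -0.53 (SE 0.12, adjusted p = 0.0514) and Prom1 (prominin) had -0.27 (SE 0.07, adjusted p = 0.0655). Nes, Hopx, Fabp7 and Vim, which are markers of the same cells, were between -0.10 and 0.05 and had intervals that included 0.

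The 10 proliferation genes did not move together, with 2 higher (Mcm2 at 0.25 and Mcm5 at 0.20, subunits of the replication helicase) and 1 lower (Pcna at -0.11) at an unadjusted p of 0.05 or less, all with an adjusted p of 0.202 to 0.299. Mki67, the usual marker of dividing cells, had 3.79 to 5.52 CPM in WT SH and 4.35 to 5.13 CPM in WT EE, which overlapped. Of the 20 other genes of neuroblasts and immature granule neurons, 6 were lower and 1 higher at that p, with a median of -0.08. Marcksl1, which acts on actin, had -0.24 (SE 0.06, adjusted p = 0.0655), and Gap43 of growing axons and Stmn2 of microtubules had -0.11 each (adjusted p = 0.140 and 0.177). St8sia2, which adds polysialic acid to NCAM on migrating neuroblasts, had -0.27 (SE 0.11, adjusted p = 0.202), and Ccnd2, a cyclin of dividing neuronal precursors, was the 1 with a positive value (0.17, adjusted p = 0.236). No gene of the 3 lists was called over the 22 libraries.

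**Figure D4:**
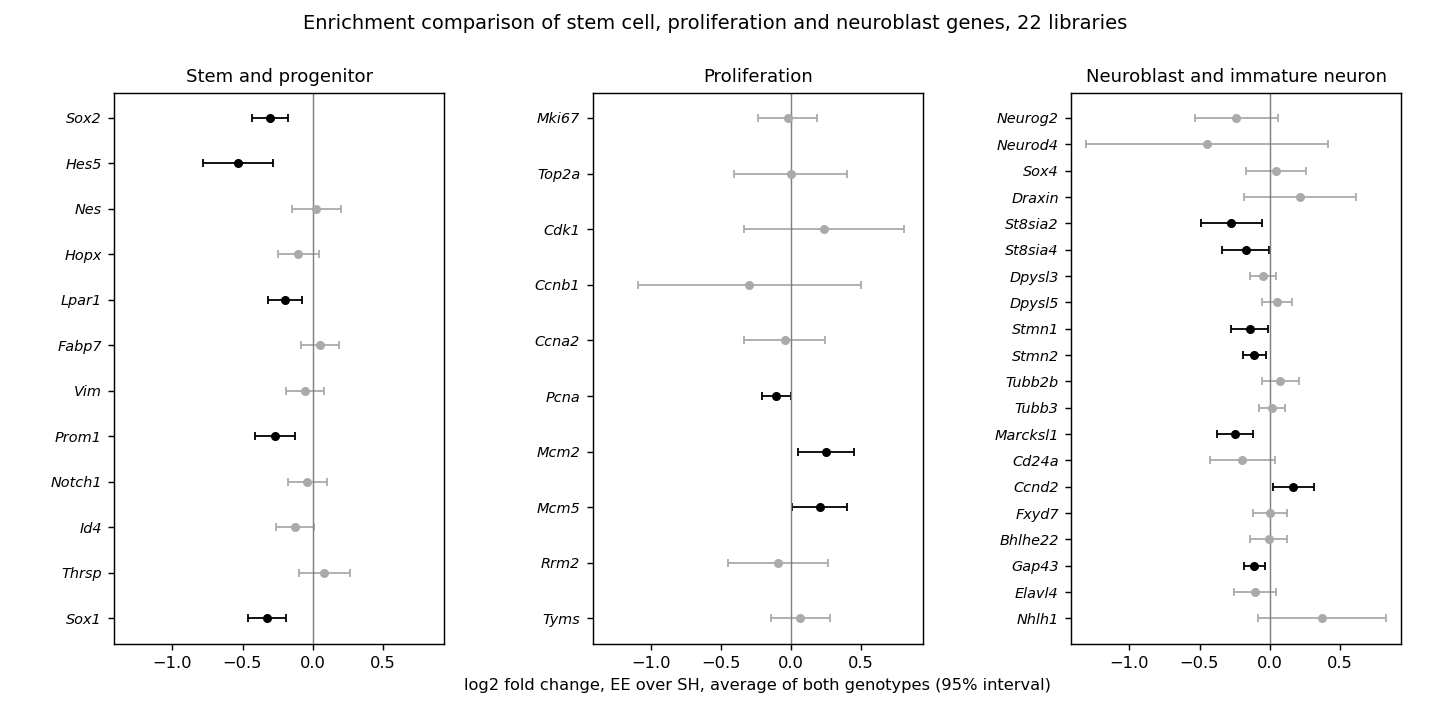
Log2 fold change of EE over SH, averaged over the genotypes (x axes), for the genes of the stem cell, proliferation and neuroblast lists (y axes), with 95% intervals from edgeR over 22 libraries. Black points have an unadjusted p of 0.05 or less, which are 5 lower stem cell genes, 2 higher and 1 lower proliferation genes, and 6 lower and 1 higher neuroblast genes.

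Some of the lists hold cells in which the 9 genes are also found. All 6 genes of the list named for GABAergic neuroblasts, such as those of the olfactory stream, had negative fold changes, with a median of -0.30. At an unadjusted p of 0.05 or less, 5 of them were lower, where 7.28% of all genes were. Whether their RNA came from neuroblasts or from mature interneurons was not tested. Sp8 had -0.84 (SE 0.19, adjusted p = 0.0501), Dlx6 had -0.49 (SE 0.15, adjusted p = 0.0973), Dlx2 had -0.28 (adjusted p = 0.106) and Dlx5 had -0.29 (adjusted p = 0.113). The 10 genes of mature dentate granule neurons were split, with 2 higher and 2 lower at that p and a median of 0.04. Pdzd2 (0.36, adjusted p = 0.0598) and Trpc6 (0.26) were higher, and Tdo2 (-0.34) and Npnt (-0.11) were lower. The pyramidal neurons of the CA fields had 1 of 10 higher (Amigo2 at 0.18) and the neocortical list 0 of 10 at that p in either direction. The Cajal-Retzius list, cells that express Calb2 and Reln, had 1 of 6 at that p (Trp73, higher by 0.47, adjusted p = 0.150). The interneuron list, cells of which some express Calb2, had 2 of 8 lower at that p (Gad2 at -0.19, adjusted p = 0.111, and Gad1 at -0.10, adjusted p = 0.146), with a median of -0.08. Its summed level was 755 to 856 CPM in WT EE and 852 to 957 CPM in WT SH, which overlapped, and 812 to 865 CPM in KD EE against 790 to 941 CPM in KD SH. All 8 thalamic genes had negative fold changes, and 3 were lower at that p (Prkcd at -0.59, Zic1 at -0.62 and Plekhg1 at -0.28), with a median of -0.43 and the high sum of library 12 on the SH side. The striatal list had 1 of 10 higher and 0 lower at that p. Its fold changes were negative in 8 of 10, with a median of -0.10 and the high sum of library 14 on the SH side. The list of ependyma, which lines the ventricle, had 2 of 6 higher and 3 lower at that p. The share of each of these cells in the differences of the 9 genes was not tested.

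The 9 genes did not vary as 1 program across the libraries. Among their 36 pairs, the median Pearson correlation of log2 CPM over the 22 libraries was 0.11, and 5 pairs reached 0.5 or more. These were Neurod1 with Neurod6 (0.78), Eomes with Igfbpl1 (0.74), Calb2 with Igfbpl1 (0.65), Dcx with Tbr1 (0.60) and Eomes with Calb2 (0.52). Neurod1 had 0.43 with Sox11, 0.13 with Dcx and -0.11 with Eomes. Neurod2 with Dcx gave the lowest value (-0.51), and library 5 was the highest in Dcx and the lowest in Neurod2. These correlations describe libraries that share differences in depth and in tissue makeup, and carry no test.

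Among all genes tested, the 3 most like each member by the same measure were these. For Neurod1 they were Kbtbd7 (r = 0.83), Shroom2 (0.81) and Plppr5 (0.81), and for Neurod6 they were Slitrk2 (0.88), Lrrn3 (0.85) and Ube2e2 (0.83). For Neurod2 they were Islr2 (0.89), Nab2 (0.89) and Lrrc10b (0.86), of which Nab2 is a corepressor of the Egr factors. Dcx was most like Fam135a (0.88), Zfp942 (0.87) and Dennd4a (0.87), Tbr1 most like Vsnl1 (0.82), Camk2g (0.80) and 9130024F11Rik (0.79), and Sox11 most like Zmat3 (0.88), E230020D15Rik (0.85) and Cnot9 (0.85). Eomes was most like Ebf3 (0.88), a gene of the Cajal-Retzius list, A230065H16Rik (0.85) and Duox2 (0.85). With the mean log2 CPM of the Cajal-Retzius list, Eomes had an r of 0.68, its highest for any list. It had 0.39 with the stem cell list and 0.26 with the neuroblast list. Igfbpl1 was most like Duox2 (0.82), Col6a3 (0.82) and A230065H16Rik (0.81), so that Eomes and Igfbpl1 shared 2 of their 3 genes. Calb2 was most like Cd81 (0.81), Sirt2 (0.79) and Rpl37a (0.77).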

How the data were processed

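Per the labels and the study's methods, paired reads of poly-A libraries were trimmed (Skewer), placed on GRCm38 (STAR 2.5) and assigned to gene symbols (HTSeq), strand being ignored. The files that the authors deposited hold raw counts for each library. A further table of 17 columns, scaled by the authors, was not used. Libraries were grouped by their labels.

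Counts of 22 libraries were fitted with edgeR 4.0.16 in R 4.3.3 (filterByExpr, TMM, 1 mean for each of 4 groups, quasi-likelihood test), with Benjamini-Hochberg adjustment over the 18482 genes tested. The thresholds for a call were 0.05 for the adjusted p and 0.38 for the size of the log2 fold change. SE and 95% intervals come from the same fit. The averaged comparison weights both genotypes equally. Likeness is Pearson's r of log2 CPM with a prior count of 2. Exon lengths are unions over GENCODE M21 and promoters are RefSeq windows, which Calb2 and Igfbpl1 lacked in the table used. The test was tried on simulated data. No 2 of 50 pairs of libraries within groups held identical counts.

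The 9 genes and the lists were chosen with earlier results of these data known. The genes named are the 9, the 3 most like each, at most 4 of each list with an unadjusted p of 0.05 or less in the averaged comparison (lowest p first), and Rps6ka5. Mki67, Nes, Hopx, Fabp7 and Vim are outside this rule, as are Ttr, Reln and the genes that overlap a member. A further gene of the stem cell list is not reported here and entered no list count. Alternatives were other sets of libraries, each library left out, the size factors of DESeq2 1.42.0 and its Wald test, other filters on low counts, and the choroid plexus or dentate granule score as a covariate. Figures were drawn with matplotlib 3.10.9.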

Additional observations from a re-analysis of the deposited data

Results flagged for a closer look

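In 36 groups of 5 or 6 libraries (9 genes in 4 groups), 4 had a highest library set far apart from the rest by Dixon's criterion, which flags about 1 in 20 groups by chance. Neurod1 was at 19.8 CPM in library 7 (KD EE), with the next at 15.3 CPM. Dcx was at 34.2 CPM in library 33A (WT EE), with the next at 29.3 CPM, and at 53.0 CPM in library 5 (KD SH), with the next at 36.04 CPM. Igfbpl1 was at 4.53 CPM in library 33A (WT EE), with the next at 2.36 CPM.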

How the results depend on the processing

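No paired analysis was possible because each library has a code of its own, shared by no other group. Of 490 fold changes of the 9 genes recomputed under the alternatives, 459 kept their sign and their side of the thresholds, 3 passed the thresholds (Neurod1 and Neurod6 in WT over 17 libraries, and Neurod1 in WT without lettered libraries) and 28 changed sign. Of 990 with 1 library left out, 961 kept both, none passed the thresholds and 29 changed sign. Eomes had no value with at least 10 counts required in every library. Causes were not tested. The genes called in WT (0) became 664 over 17 libraries, 1 over 24, 314 without lettered libraries, 23 with DESeq2 and 7 without a filter. In KD (0) they became 325 over 17 libraries, 2 with DESeq2 and 1 with the dentate granule score, and with 1 library left out they were 0 to 1. In the average (27) they became 720 over 17, 90 over 24, 80 without lettered libraries, 4 without libraries 12 and 14, 3 without 5, 12 and 14 (chosen after seeing the data), 44 with size factors, 220 with DESeq2, 209 without a filter, 45 with at least 10 counts, 9 with the choroid plexus score and 238 with the dentate score, and from 2 (without library 1) to 287 (without 31B) with 1 left out. WT against KD gave 2 called genes in SH with DESeq2, and 1 in EE over 17 libraries and at most 1 (0 to 1) with 1 left out. Members at an unadjusted p of 0.05 or less in KD (0) became 1 (lower in EE) over 17 libraries, without 12 and 14 and with DESeq2, 1 (Neurod2, higher in EE) with the dentate score, and, all lower, 2 without a filter, with the choroid plexus score and without 5, 12 and 14, and 3 without lettered libraries, and were 0 to 3 with 1 left out (1 of the 3 without library 6 being Neurod2, higher). In WT (2) they became 3 over 24 libraries, without lettered libraries and with the choroid plexus score, all lower. In the average (3) they became 5 without lettered libraries, 4 with the choroid plexus score and 2 over 17 libraries, all lower. For WT against KD they became 1 in SH with the dentate score, 1 in EE over 17 libraries, without lettered libraries and with either score, and 2 in the average over 17 libraries and 1 without lettered libraries. For the interaction they became 2 over 17 libraries and 1 without lettered libraries or with the choroid plexus score. These 4 counts were 0 to 1 with 1 library left out.

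In WT, EE against SH turned for Neurod2 over 17 libraries (-0.0661), without lettered libraries (-0.0511), without 12 and 14 (-0.0535), with the dentate score (-0.0557) and without 5, 12 and 14 (-0.0535), and ran from -0.0113 to 0.0896 with 1 left out. It turned for Dcx with the dentate score (0.0314), for Eomes without lettered libraries (0.0584), and for Sox11 over 24 libraries (0.0167) and with the choroid plexus score (0.0204), from -0.166 to 0.0975 with 1 left out. In KD it turned for Neurod1 with the choroid plexus score (0.0717), Sox11 without lettered libraries (-0.0579) and Igfbpl1 over 17 (0.0799), and in the average for Sox11 without lettered libraries (-0.268), from -0.0248 to 0.114 with 1 left out. WT against KD averaged over housing turned without lettered libraries for Neurod6 (-0.0426), Sox11 (-0.0398) and Calb2 (0.0570), over 17 libraries for Sox11 (-0.0359) and Calb2 (0.0706), with the dentate score for Dcx (0.00731) and Calb2 (0.00118), with the choroid plexus score for Calb2 (0.0272), and without 5, 12 and 14 for Dcx (0.0315). With 1 left out it ran from -0.0137 to 0.0538 for Neurod6, -0.0795 to 0.0433 for Dcx and -0.0439 to 0.0829 for Calb2. The interaction turned over 17 libraries for Calb2 (-0.0593) and Igfbpl1 (-0.240), over 24 for Calb2 (-0.00391), without 12 and 14 for Igfbpl1 (-0.223), and without 5, 12 and 14 for Dcx (-0.0412) and Igfbpl1 (-0.280). With 1 left out it ran from -0.0645 to 0.254 for Dcx, -0.132 to 0.120 for Calb2 and -0.340 to 0.339 for Igfbpl1.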
